A study of Homo sapiens with 9 samples.

Results

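snoRNA host genes carry small nucleolar RNAs (snoRNAs) in their introns, and 10 noncoding ones are described here: GAS5, SNHG1, SNHG3, SNHG5, SNHG6, SNHG7, SNHG8, SNHG12, SNHG15 and SNHG16. They were taken by name, out of 19173 genes that held a called peak in any library. A peak counted for a host gene when it lay on its strand over an exon or a splice site of the gene in GENCODE (GRCh38) and over no snoRNA gene. By this rule 723 of 2380677 peaks in 54 libraries were on the 10 genes.

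The libraries were made by antibody-barcode eCLIP (ABC), in which RNA is crosslinked to protein by UV light, RNA-binding proteins (RBPs) are pulled down with antibodies that each carry a DNA barcode, and the barcode is ligated to the RNA fragment held by the same antibody. Ten-antibody pools (10plex) covered DDX3, EIF3G, FAM120A, IGF2BP2, LIN28B, PRPF8, PUM2, RBFOX2, SF3B4 and ZC3H11A, each in 3 pools of K562 cells, a human erythroleukaemia line, and 2 pools of HEK293T cells, a human embryonic kidney line with the SV40 large T antigen. Libraries with 1 antibody (singleplex) were made in duplicate for RBFOX2 in HEK293T cells and for SLBP in K562 cells. All cells were untreated apart from the crosslinking. Each line stands for 1 immortal cell population, and nothing in the labels says that pools came from separate cultures, so p-values here measure the spread between pools, which may be technical. The comparison of interest was between the spliceosome proteins PRPF8 and SF3B4 and the translation proteins DDX3 and EIF3G, in both lines.

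A host transcript is spliced, its snoRNAs are trimmed out of the excised introns, and the joined exons leave as a noncoding RNA, which is often bound by ribosomes and degraded. Many host transcripts start with a run of pyrimidines, as do mRNAs of ribosomal proteins. PRPF8 is the large protein at the core of the U5 particle and touches the 5′ splice site, SF3B4 is a subunit of the SF3b complex of the U2 particle that binds near the branch point before the 3′ splice site, DDX3 is a helicase that helps ribosomes start on structured leaders, and EIF3G is a subunit of initiation factor eIF3.

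Examples of the 5′ splice sites where PRPF8 peaks recurred are shown 5′ to 3′ as 10 exon and 20 intron bases of GRCh38. They are a selection from the 20 sites with a PRPF8 peak in at least 3 libraries. Among those left out are SNHG1 intron 8 and SNHG7 intron 1, with PRPF8 peaks in 5 libraries each. Capitals mark the last 3 exon bases and the first 6 intron bases.
GAS5 intron 3, chr1:173866741-173866770, minus strand: agctactGAAGTAAGTtgaaaattccctct
GAS5 intron 5, chr1:173866157-173866186, minus strand: agttgaaATGGTAAGTgaaactgtatccaa
GAS5 intron 9, chr1:173864655-173864684, minus strand: agaaatgCAGGTTAGTttaaactttgaagg
SNHG1 intron 3, chr11:62855113-62855142, minus strand: aatgttcCAGGTAGGTgtacatggtttatg
SNHG1 intron 5, chr11:62854499-62854528, minus strand: ctatcttACAGTAAGTtgtttttcgaattc
SNHG1 intron 9, chr11:62853055-62853084, minus strand: gaagttaCAGGTGAGTaaacctaaatgtaa
SNHG3 intron 1, chr1:28506075-28506104, plus strand: cttctccTTGGTAAGTgtgatccttggtaa
SNHG15 intron 2, chr7:44983802-44983831, minus strand: ctgtgcaGGGGTAAGTgtgcaggaaggtct
SNHG16 intron 2, chr17:76561389-76561418, plus strand: tgtctttAATGTGAGTaagtagacgaactg
Introns and exons are numbered on the Ensembl canonical transcript of each gene. GTAAGT, read on the RNA strand, stood at the start of 11 of the 47 introns of the 10 genes (23.4%), of 7 of the 20 that had a PRPF8 peak at the 5′ splice site in at least 3 libraries (35%), and of 13.7% of 232929 introns of canonical transcripts. These shares are descriptions of the letters only.

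The 3′ end of 3 introns with SF3B4 peaks before it is shown as examples. The peaks were in 3 libraries at SNHG15 intron 2 and in 1 each at SNHG1 intron 6 and GAS5 intron 5. The GAS5 peak was centred 36 nt before the junction, outside the bases shown. SNHG3 intron 2, with SF3B4 peaks in 5 libraries, is not shown. Each line holds the last 30 intron bases of GRCh38, with the closing AG in capitals.
SNHG15 intron 2, chr7:44983323-44983352, minus strand: tctgaagtgtttctcatctcatttttacAG
SNHG1 intron 6, chr11:62853834-62853863, minus strand: tctttcacccacagctttgtttttctctAG
GAS5 intron 5, chr1:173865895-173865924, minus strand: ggctattctaagaccactcttatttcttAG
The first 30 bases of 2 transcripts are shown because DDX3 and EIF3G had peaks on their first exon, as did PRPF8, LIN28B and other RBPs. They are the RefSeq starts (GRCh38.p14) with the longest run of pyrimidines in capitals, and the starts of GENCODE transcripts can lie elsewhere. In SNHG16 this run does not begin at the first base.
SNHG5, chr6:85678704-85678733, minus strand: CTTTTacgtcggccttcgcgagcgtctggg
SNHG16, chr17:76557764-76557793, plus strand: gcgTTCTTTTCgaggtcggccgcgtggctg

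Reads in called peaks of the 10plex libraries ranged from 10186 (PUM2, K562 pool 1) to 2114681 (RBFOX2, HEK293T pool 2) and those of the singleplex libraries from 11917 to 3616851, and levels are given as RPM, a gene's peak reads scaled to all peak reads of the library. The smallest called peak held 3 reads, so a level of 0 means no called peak and carries no bound. For PRPF8 the smallest peak was worth 2.12 to 6.87 RPM and for EIF3G 27.7 to 124 RPM. A peak of 10 RPM could therefore be seen in the PRPF8 libraries and not in those of EIF3G. The main class results for exonic reads are given again below after only peaks above a common floor were kept. Class results on the canonical transcript are not. The closest library to each 10plex library was of the same RBP for 46 of 50. Summed K562 markers exceeded summed HEK293T markers in 30 of 30 K562 libraries and in 0 of 20 HEK293T libraries, whose K562 markers came from TFRC alone, and 2 HEK293T markers (DPYSL3 and STMN2) had no peak in any library.

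The snoRNAs dominated these genes. Of 2810 peaks on the 10 genes, 2104 (74.9%) lay over a snoRNA gene, and they held 94.8% of the reads. In this count a host peak that touches a larger snoRNA peak is joined to it, so fewer than 723 are left. The share was 72.8% of peaks for PRPF8 and SF3B4 in K562, 63.7% in HEK293T, and 88.3% and 77.7% for DDX3 and EIF3G. What follows is about the remaining reads, which lay beside the snoRNAs.

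**Figure D1:**
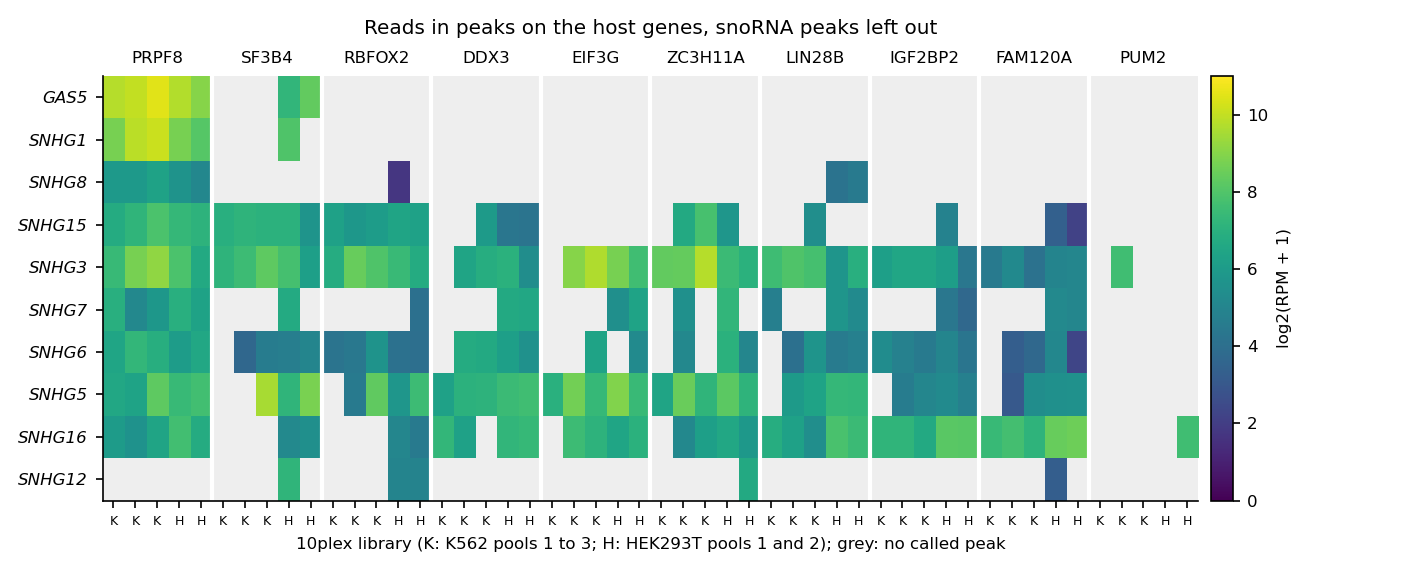
Level of each host gene (rows) in each 10plex library (columns, grouped by RBP), as log2(RPM + 1) of exonic and splice-site reads together, with snoRNA peaks left out and grey for no called peak. PRPF8 had a peak on 9 of the 10 genes in each of its 5 libraries, GAS5 and SNHG1 were filled for PRPF8 and SF3B4 alone, and PUM2 had a peak on at most 1 gene.

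GAS5 and SNHG1 carried peaks of the spliceosome proteins and of no other RBP in the 10plex pools. GAS5, a growth-arrest transcript, held 888, 1017 and 1462 exonic RPM for PRPF8 in K562 pools 1 to 3 and 860 and 510 RPM in the HEK293T pools. SF3B4 had no GAS5 peak in K562 and 152 and 330 RPM in HEK293T. All 40 libraries of the other 8 RBPs had none.
SNHG1 showed the same order of RBPs. PRPF8 gave 430, 938 and 1124 RPM in K562 and 434 and 276 RPM in HEK293T. SF3B4 gave 253 RPM in HEK293T pool 1 and no peak in its other 4 libraries. PRPF8 levels on both genes thus lay above every called level of the other RBPs. The share of all genes like this was not worked out.

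The fitted difference between the classes is the mean of PRPF8 and SF3B4 minus the mean of DDX3 and EIF3G on the log2(RPM + 1) scale, from limma over 13422 genes. It was 5.05 ± 0.29 (SE) for GAS5 in K562 and 8.59 ± 0.35 in HEK293T. For SNHG1 it was 4.79 ± 0.59 in K562 and 6.22 ± 0.73 in HEK293T. A gene was fitted if it had a value in at least 5 of the 50 libraries, and GAS5 and SNHG1 met this through the 5 PRPF8 libraries with SF3B4, so they had to be higher and no p is given. With DDX3 and EIF3G at 0 in every library, these differences depend on the added 1 RPM, so no fold is given. In K562 the GAS5 value averages PRPF8 with an SF3B4 that had no peak.

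GAS5, SNHG1, SNHG8 and SNHG15 were past the threshold in both lines, all higher for PRPF8 and SF3B4. SNHG8 too entered the fit only through PRPF8, with 3 libraries of other RBPs, so SNHG15 is the host whose call the filter did not favour. Over all genes tested 24.6% were higher and 3.73% lower in K562, and 16.6% were higher and 6.11% lower in HEK293T. Because of the filter, the count of 4 of 10 is given as a description and supports nothing.

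SNHG8, on which the PRPF8 peaks lay mainly in the first exon, had the lowest PRPF8 levels of these 4. PRPF8 held 59.5, 59.6 and 79.8 RPM in K562 and 49.9 and 33.2 RPM in HEK293T. LIN28B, an RBP that binds let-7 precursors and many mRNAs, held 17.2 and 21.2 RPM in HEK293T and nothing in K562. The class difference was 3.03 ± 0.24 in K562 and 2.69 ± 0.30 in HEK293T, with no p for the same reason, against DDX3 and EIF3G libraries that had no SNHG8 peak. Its K562 levels all lay below the common floors given further on, and SNHG8 could not be tested above them.

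SNHG15 was the one host with exonic peaks of PRPF8, SF3B4 and the splicing regulator RBFOX2 in every pool. PRPF8 held 108, 145 and 235 RPM in K562 and 160 and 138 RPM in HEK293T. SF3B4 held 121, 143 and 132 RPM in K562 and 132 and 50.3 RPM in HEK293T. RBFOX2 held 78.3, 55.7 and 67.7 RPM in K562 and 85.0 and 77.6 RPM in HEK293T.
On the translation side, EIF3G had no SNHG15 peak and DDX3 had 62.9 RPM in K562 pool 3 and 19.03 and 17.99 RPM in HEK293T. Every PRPF8 and SF3B4 level lay above every DDX3 level of its line, and the share of all genes like this was not worked out. The EIF3G level of 0 carries no bound, as its smallest peak was worth 124, 79.8 and 81.5 RPM in K562 pools 1 to 3. The class difference was 6.17 ± 0.97 (limma, adjusted p = 1.2e-05) in K562 and 4.65 ± 1.19 (adjusted p = 0.0044) in HEK293T. The HEK293T call was lost without pool 1 (4.28, limma, adjusted p = 0.113) and without pool 2 (5.03, adjusted p = 0.0607). ZC3H11A, an mRNA export protein, was uneven, with 102 and 220 RPM in K562 pools 2 and 3, 53.5 RPM in HEK293T pool 1 and no peak in the other 2.

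**Figure D2:**
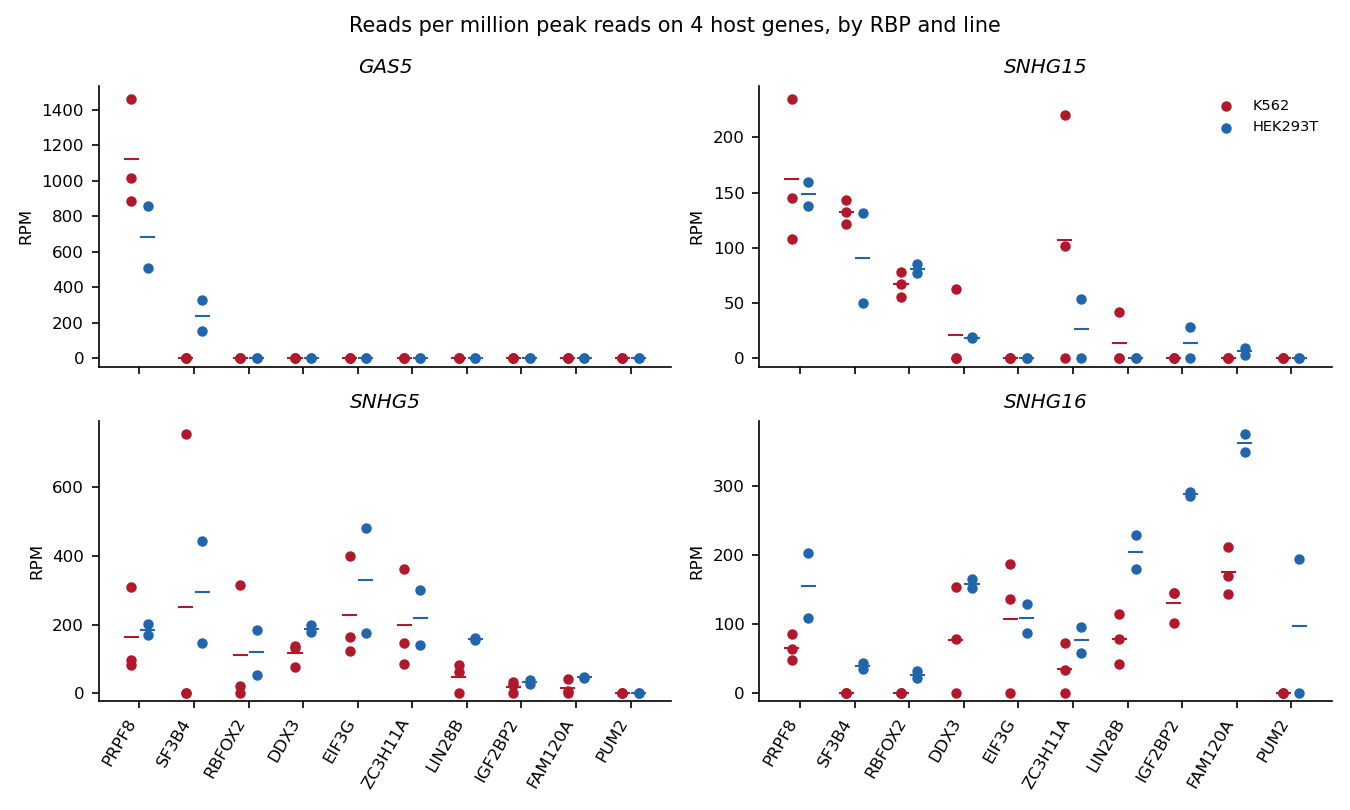
RPM of exonic and splice-site reads together on 4 host genes, by RBP, with 1 point a library (3 K562, 2 HEK293T) and a line at the mean. GAS5 was held by PRPF8 and SF3B4, SNHG15 also by RBFOX2, and SNHG5 and SNHG16 were spread over most RBPs.

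SNHG3 had the highest EIF3G levels of the 10 genes in K562. EIF3G held no peak in K562 pool 1, 505 and 815 RPM in pools 2 and 3, and 424 and 148 RPM in HEK293T. ZC3H11A held 322, 214 and 684 RPM in K562 and 182 and 128 RPM in HEK293T. DDX3 was lower, with 69.2 RPM in K562 pool 3, none in the other K562 pools and 130 and 41.1 RPM in HEK293T.
Spliceosome and regulator levels overlapped these. PRPF8 held 75.5, 189 and 264 RPM on SNHG3 in K562 and 79.2 and 47.3 RPM in HEK293T. RBFOX2 held 111, 342 and 252 RPM in K562 and 175 and 107 RPM in HEK293T. The class difference on SNHG3 exons did not pass the test in K562 (1.09) or in HEK293T (-2.87, limma, adjusted p = 0.2). Both ends of SNHG3 overlap exons that GENCODE also gives to RCC1, a neighbouring coding gene on the same strand, and reads there cannot be told apart.

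SNHG5 was spread over 9 RBPs. EIF3G held 124, 399 and 163 RPM in K562 and 482 and 175 RPM in HEK293T. DDX3 held 77.0, 133 and 138 RPM in K562 and 178 and 198 RPM in HEK293T. PRPF8 lay in the same range, at 96.1, 83.5 and 310 RPM in K562 and 168 and 202 RPM in HEK293T.
SF3B4 on SNHG5 had no peak in K562 pools 1 and 2, 755 RPM in pool 3 and 147 and 444 RPM in HEK293T. The 755 RPM came from a peak in intron 3 that touches a snoRNA peak. The class difference for SNHG5 was -2.10 (limma, adjusted p = 0.13) in K562 and -0.11 in HEK293T. Peaks on its first exon also lie on an exon of an unnamed GENCODE gene.

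SNHG16 was the host on which FAM120A and IGF2BP2 had their highest levels. FAM120A held 170, 212 and 143 RPM in K562 and 349 and 375 RPM in HEK293T. IGF2BP2, which binds and stabilises mRNAs, held 145, 144 and 101 RPM in K562 and 291 and 285 RPM in HEK293T. LIN28B held 114, 78.0 and 41.7 RPM in K562 and 229 and 180 RPM in HEK293T.
For these 3 RBPs every HEK293T level on SNHG16 lay above every K562 level, a difference between the lines that was not tested. PRPF8 held 64.1, 47.7 and 86.1 RPM in K562 and 202 and 109 RPM in HEK293T. DDX3 held 154 and 78.2 RPM in K562 pools 1 and 2, none in pool 3, and 152 and 164 RPM in HEK293T. The class difference for SNHG16 did not pass the test, at -0.43 in K562 and -2.05 in HEK293T.

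SNHG6 and SNHG7 were low. On SNHG6, PRPF8 held 64.1, 133 and 105 RPM in K562 and 66.2 and 79.8 RPM in HEK293T. DDX3 held 109 and 101 RPM in K562 pools 2 and 3 none in pool 1, and 72.9 and 46.3 RPM in HEK293T, so that the 2 RBPs overlapped.
On SNHG7, PRPF8 held 82.4, 11.9 and 20.3 RPM in K562 and 76.0 and 53.7 RPM in HEK293T. DDX3 and EIF3G had no SNHG7 peak in K562, and in HEK293T DDX3 held 101 and 95.1 RPM and EIF3G 43.8 and 83.1 RPM. The class difference for SNHG7 was 2.41 (limma, adjusted p = 0.067) in K562 and -1.74 in HEK293T, and for SNHG6 it was 1.38 and 1.28, with no call.

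SNHG12 was nearly empty. It had no peak in K562 and none for PRPF8 in either line. In HEK293T, RBFOX2 held 30.1 and 29.3 RPM, SF3B4 147 RPM and FAM120A 8.81 RPM in pool 1, and ZC3H11A 103 RPM in pool 2.

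Above the common floor, fewer host genes were higher for the spliceosome proteins and some were lower. The floor of a pool was the RPM of 3 reads in its shallowest library among these RBPs, 124, 79.8 and 81.5 RPM in K562 and 43.8 and 27.7 RPM in HEK293T, and 3833 genes and 8 hosts could be tested. GAS5 (5.05) and SNHG1 (4.79), fitted through PRPF8 as before, were higher in K562, where 1.28% of all genes were. In HEK293T, where 5.35% were higher, GAS5 was at 8.56, SNHG1 at 6.22 and SNHG15 at 3.07 (limma, adjusted p = 0.035). SNHG15 in K562 was at 2.17 (limma, adjusted p = 0.12).
On the low side, SNHG6 was at -3.30 (limma, adjusted p = 0.0068) in K562, where 24.2% of all genes were lower. SNHG3 (-3.99, limma, adjusted p = 0.033), SNHG6 (-3.00, adjusted p = 0.027) and SNHG7 (-4.60, adjusted p = 0.00012) were lower in HEK293T, where 46.2% of all genes were. The PRPF8 libraries held 436826 to 1415605 peak reads and those of EIF3G 24212 to 108322. The line-to-line contrast explained next was -3.50 for GAS5 and 4.60 for SNHG7 (limma, adjusted p = 0.0039) above the floor, where 5.35% of all genes were lower and 18.7% higher.

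**Figure D3:**
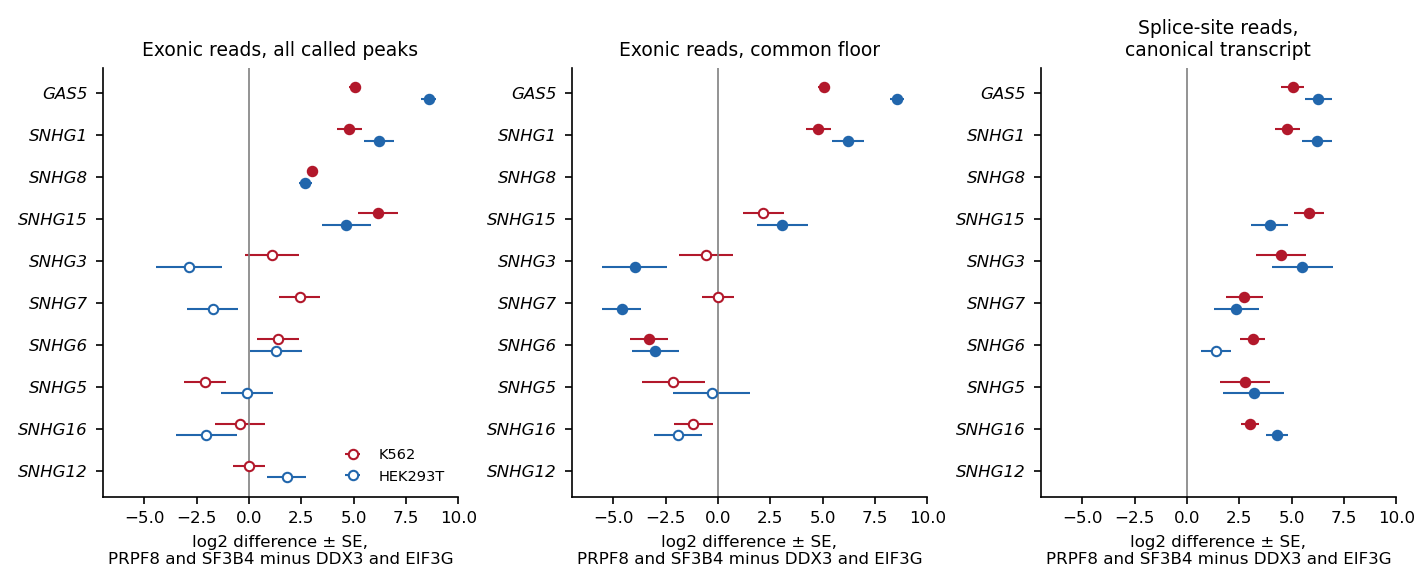
Difference between PRPF8 and SF3B4 and DDX3 and EIF3G for each host gene, on the log2(RPM + 1) scale with its SE, in K562 and HEK293T, for exonic reads, for exonic reads above the common floor and for splice-site reads on the canonical transcript; filled points passed the test at an adjusted p under 0.05 and genes without a point were not tested. GAS5 and SNHG1 lie to the right in all 3 panels, and SNHG3, SNHG6 and SNHG7 change side between the panels.

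The line-to-line contrast, the K562 class difference minus that of HEK293T, passed the test for GAS5 alone, at -3.54 ± 0.46, where 3.08% of all genes were lower and 3.68% higher. It rests on SF3B4, which had a GAS5 peak in the 2 HEK293T pools and in no K562 pool. The libraries of every RBP but PRPF8 and SF3B4 were at 0 for GAS5 and entered the fit without spread. The SE therefore does not measure the spread between SF3B4 pools, and no p is given. The 330 RPM of HEK293T pool 2 came from a peak in intron 8 that touches a snoRNA peak. Without the 17 host peaks that touch a snoRNA peak the contrast was -1.68 (limma, adjusted p = 0.307).

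The PRPF8 peaks counted as exonic on SNHG1 lay in introns of the canonical transcript, as did those on GAS5 apart from exon 3. In GAS5 exon 3 PRPF8 held 140 to 220 RPM in 2 HEK293T libraries. GENCODE also lists transcripts of these genes that keep their introns, so the centre of an intronic peak falls in an exon of some transcript. When exons and introns were taken from the canonical transcript alone, 8 host genes could be tested for reads within 100 nt of a splice site. All 8 were higher for PRPF8 and SF3B4 in K562 and 7 in HEK293T, where SNHG6 was not called, beside 88.3% and 85.5% of all genes. The 5-library filter can be met by PRPF8 alone, so these counts are descriptions. The difference was 5.05 and 6.28 for GAS5 (K562, then HEK293T), 4.79 and 6.22 for SNHG1, 5.83 and 3.94 for SNHG15, 3.01 and 4.30 for SNHG16 and 2.76 and 3.19 for SNHG5.
With all transcripts used, 3 host genes had enough splice-site reads. PRPF8 held 93.9, 236 and 307 RPM at SNHG3 splice sites in K562 and 155 and 55.1 RPM in HEK293T, and SF3B4 held 121, 155 and 304 RPM and 187 and 72.4 RPM. At SNHG7, PRPF8 held 38.9, 21.9 and 36.0 RPM in K562 and 44.5 and 26.8 RPM in HEK293T. SNHG3 (5.54 ± 1.07), SNHG6 (2.12 ± 0.52) and SNHG7 (2.51 ± 0.39) were past the threshold in K562, and SNHG3 (5.32 ± 1.31) and SNHG7 (3.87 ± 0.48) in HEK293T. Some SNHG3 peaks there also lie on an exon of another gene. Without such peaks 2 host genes could be tested and SNHG3 was not among them, so its difference cannot be assigned to SNHG3 alone. SNHG6 and SNHG7 had 1 library each outside PRPF8 and thus entered the fit through it. Over all genes 85.9% in K562 and 81.7% in HEK293T were higher and 0.0255% and 0.0891% lower, so the hosts did as most genes with splice-site reads did. Above the common floor 1 host gene and 225 genes could be tested at splice sites. There 62 of the 225 were higher in K562 and 125 in HEK293T, so the shares without the floor are not those of libraries of equal depth. No host passed the line-to-line contrast of splice-site reads, where 12.7% of genes were higher and 11.5% lower.

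Restricted to exons of the canonical transcript, 7 host genes could be tested. SNHG8 and SNHG15 were higher for the spliceosome proteins in both lines, beside 13.3% of all genes in K562 and 11.8% in HEK293T. SNHG8 entered this fit too through its PRPF8 libraries, so its call is a description and supports nothing. SNHG5 (-3.82, limma, adjusted p = 0.002) was lower in K562, and SNHG3 (-4.76, adjusted p = 0.028) and SNHG7 (-4.03, adjusted p = 0.0019) were lower in HEK293T, beside 4.47% and 6.42% of all genes.

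The peaks of the classes lay in different parts of the transcript. In K562, 54 of 101 peaks of PRPF8 and SF3B4 on host genes (53.5%) were centred in an intron within 100 nt of a 5′ splice site, beside 40.1% over all genes, and in HEK293T it was 43 of 102 (42.2%) beside 23.6%. DDX3 and EIF3G peaks were most often in the first exon, 17 of 31 (54.8%) in K562 beside 35.6% over all genes and 23 of 47 (48.9%) in HEK293T beside 26.2%. PRPF8 and SF3B4 also had more of their host peaks in first exons (16.8% and 16.7%) than over all genes (4.23% and 6.51%). Of the 54 K562 peaks at 5′ splice sites 50 were of PRPF8. SF3B4 alone had 5 of 20 host peaks at 3′ splice sites in K562 (25%), beside 40.3% over all genes, and 4 of 20 at 5′ splice sites (20%), beside 8.29%. In HEK293T SF3B4 had 8 of 27 at 3′ splice sites (29.6%, beside 26.5%) and 6 of 27 at 5′ splice sites (22.2%, beside 6.91%). Peaks of 1 library and of 1 gene are not independent, so these shares were not tested.

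**Figure D4:**
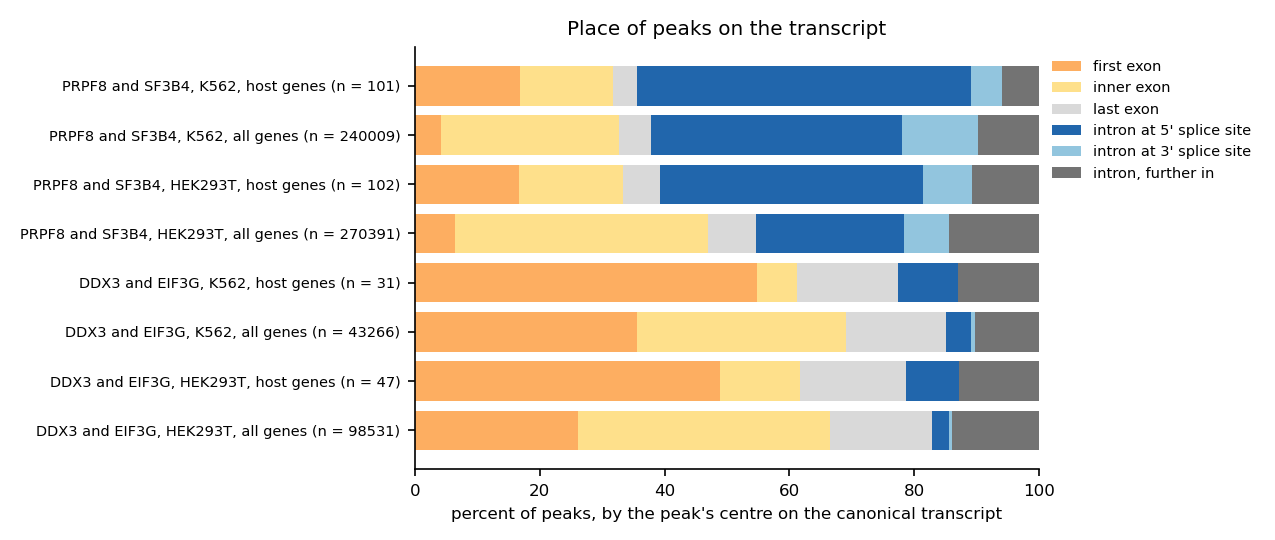
Percent of peaks by the place of their centre on the canonical transcript, for host genes and for all genes, by RBP class and line, with the number of peaks beside each bar. On host genes the bars of PRPF8 and SF3B4 are widest at 5′ splice sites and those of DDX3 and EIF3G in the first exon.

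At the 5′ splice sites the PRPF8 peaks sat close to the junction. The 87 peaks had a median centre 12 nt into the intron (quartiles 8 and 16.5), the same median as 150138 peaks over all genes (quartiles 7 and 19). SF3B4 peaks at 3′ splice sites were few, 13 with a median 28 nt before the junction (quartiles 20 and 36), against 33 nt over 43784 peaks (quartiles 23 and 43).

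**Figure D5:**
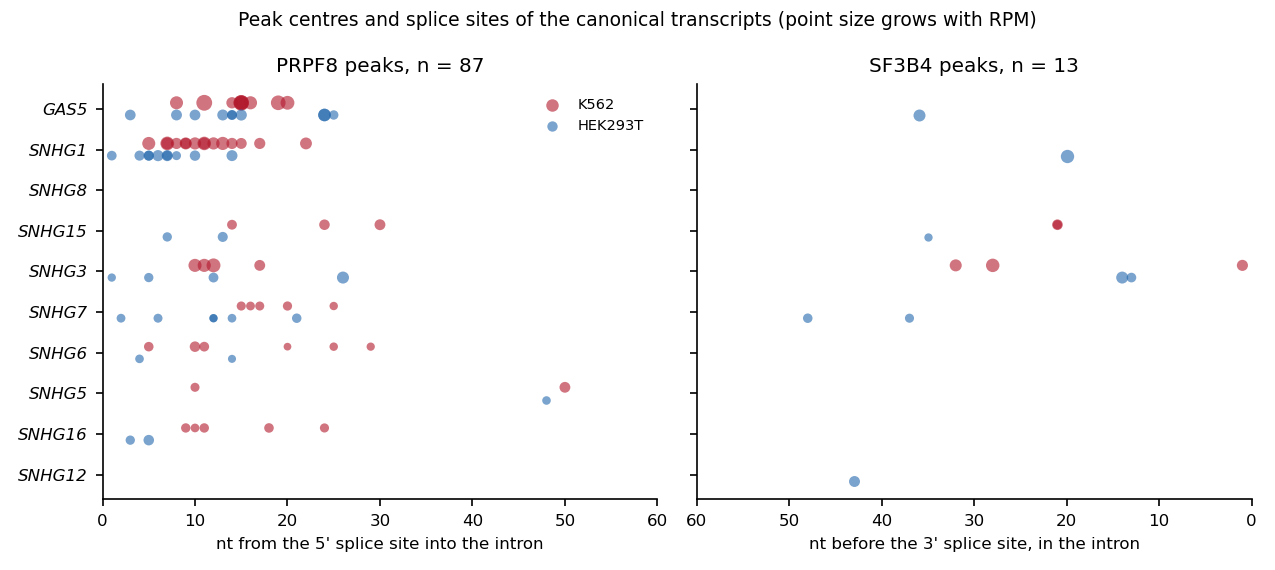
Centres of PRPF8 peaks by nt into the intron (left) and of SF3B4 peaks by nt before the 3′ splice site (right), by host gene and line, with point size growing with RPM. The 87 PRPF8 peaks lie between 1 and 50 nt, and those of GAS5 and SNHG1 lie within 25 nt.

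On GAS5 the site used by PRPF8 in all 5 libraries was intron 5, at 394, 298 and 305 RPM in K562 and 191 and 196 RPM in HEK293T. Each of these peaks passed the study's limits (P below 0.001 and a fold above 8) against the complementary control (CC), the sum of the other 9 libraries of the pool, with folds of 10.2 to 18.1. Folds over the CC were deposited for K562 pool 3 alone, and those of the other pools were solved from deposited chi-squared statistics. Intron 3 had more reads in K562, 494, 483 and 551 RPM, but folds of 3.97 to 6.23, and passed in none. The intron 3 peaks of K562 pools 1 and 2 touch a snoRNA peak, and in HEK293T the nearest peaks were centred in exon 3.

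SNHG1 had the most regular PRPF8 sites. Intron 9 held 272, 240 and 289 RPM in K562 and 106 and 103 RPM in HEK293T, with folds over the CC of 7.16 to 17.9 and 4 of 5 peaks past the limits. Intron 8 held 158, 159 and 227 RPM in K562 and 59.7 and 74.2 RPM in HEK293T, and all 5 passed. Every K562 level lay above every HEK293T level at both introns of SNHG1, a difference not tested, and the share of all sites like this was not worked out.

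The SNHG15 intron 2 site was seen with PRPF8 in 5 libraries, at 54.9, 79.5 and 93.9 RPM in K562 and 61.9 and 41.0 RPM in HEK293T, all past the limits with folds of 9.80 to 20.98. At SNHG3 intron 1 PRPF8 held 93.9, 236 and 307 RPM in K562 and 155 and 55.1 RPM in HEK293T, and 4 of 5 peaks passed. The peak of 307 RPM also lies on an exon of another gene. SF3B4 peaks before the 3′ splice site of SNHG3 intron 2 held 105, 155 and 265 RPM in K562, all past the limits, and 152 and 50.3 RPM in HEK293T, neither past them. SNHG7 intron 1 was weaker, at 21.9 to 44.5 RPM for PRPF8 in 5 libraries.

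Shares of host peaks past the CC limits were above those of all peaks for the spliceosome proteins and below them for the translation proteins, as a description with no test. PRPF8 and SF3B4 had 43 of 87 host peaks past them in K562 (49.4%), beside 25% of all their peaks, and 33 of 88 in HEK293T (37.5%), beside 18.9%. DDX3 and EIF3G had 3 of 30 in K562 (10%), beside 24.5%, and 2 of 43 in HEK293T (4.65%), beside 14.1%. With snoRNA peaks kept, the shares of PRPF8 and SF3B4 fell below those of all peaks, 14.7% beside 24.7% in K562 and 13.5% beside 18.8% in HEK293T. Against the external background DDX3 and EIF3G in K562 lay above, 83.9% beside 68.3%. Per library the main count was 7.17 ± 6.998 peaks (SD, n = 6) against 0.5 ± 0.837 (n = 6) in K562 and 8.25 ± 7.93 (n = 4) against 0.5 ± 0.577 (n = 4) in HEK293T.
Nearly all of it was PRPF8, with 7, 13 and 18 peaks in K562 and 19 and 8 in HEK293T, while SF3B4 had 1, 1 and 3 in K562 and 6 and 0 in HEK293T. By gene, 23 of 24 PRPF8 peaks on SNHG1 passed and 15 of 22 on GAS5. On SNHG5 no peak of any 10plex RBP passed.

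The first exon of SNHG5, whose start is shown above, drew both classes. DDX3 held 77.0, 133 and 138 RPM there in K562 and 127 and 95.1 RPM in HEK293T. EIF3G held 399 and 163 RPM in K562 pools 2 and 3 and 409 and 175 RPM in HEK293T, on 6 to 28 reads a library. Folds over the CC were 1.07 to 5.06 for DDX3 and 1.92 to 4.63 for EIF3G, all under the limit of 8.
On the first exon of SNHG16, DDX3 held 88.0 and 78.2 RPM in K562 pools 1 and 2 and 152 and 103 RPM in HEK293T, with folds of 1.91 to 6.53. The last exon of SNHG3 differed from these. EIF3G held 346 and 516 RPM there in K562 pools 2 and 3 and 307 and 120 RPM in HEK293T, past the limits in 3 of 4 libraries, with folds of 6.76 to 15.3.

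Each RBP was also compared with the mean of the other 9 of its line by limma, with p-values adjusted over all genes and all 20 contrasts, of which 20.7% were called in either direction for exonic reads and 20.9% for splice-site reads. The differences that follow are on the log2(RPM + 1) scale. Of 200 exonic host tests 63 were called (31.5%), 22 higher and 41 lower, and 17 of the lower calls were on GAS5, where a library without a peak is set against a mean that holds PRPF8. PRPF8 was higher on 6 of 10 host genes in K562, GAS5 (10.10), SNHG1 (9.59), SNHG8 (6.06), SNHG15 (4.86), SNHG7 (4.45) and SNHG6 (3.68), beside 25.5% of all genes. In HEK293T it was higher on 4, GAS5 (8.51), SNHG1 (7.996), SNHG8 (4.81) and SNHG15 (4.43), beside 21%. GAS5, SNHG1 and SNHG8 met the filter through their PRPF8 libraries, so these counts are descriptions and support nothing. SF3B4 was higher on SNHG15 (4.61) in K562, beside 5.57%, and on GAS5 (6.77), SNHG15 (3.48) and SNHG1 (3.06) in HEK293T, beside 3.96%. The SNHG1 call of SF3B4 rested on 1 library.
Outside the spliceosome, RBFOX2 was higher on SNHG15 in K562 (3.53, beside 8.2% of genes) and on SNHG12 (3.99) and SNHG15 (3.47) in HEK293T, beside 7.71%. SNHG12 met the 5-library filter only with its 2 RBFOX2 libraries, so its RBFOX2 call is a description and supports nothing. FAM120A (4.12, beside 28.5%) and IGF2BP2 (3.65, beside 19.1%) were higher on SNHG16 in K562. EIF3G (3.33, beside 2.12%) and ZC3H11A (3.02, beside 2.53%) were higher on SNHG5 in K562, and LIN28B (3.63, beside 7.4%) on SNHG8 in HEK293T. DDX3 and PUM2 were higher on no host gene. Without the pool as a block 18 higher calls were made: those of EIF3G (limma, adjusted p = 0.0782) and ZC3H11A (0.114) on SNHG5 in K562 and of SF3B4 (0.0726) and RBFOX2 (0.0732) on SNHG15 in HEK293T were lost.
At splice sites PRPF8 was higher on SNHG3 (5.09), SNHG6 (4.24) and SNHG7 (5.01) in K562, beside 84.5% of all genes, and on SNHG3 (5.48) and SNHG7 (4.87) in HEK293T, beside 77.9%. SNHG6 and SNHG7 entered this fit through PRPF8, so their PRPF8 calls are descriptions too. SF3B4 was higher on SNHG3 in K562 (4.99, beside 38.3%) and on SNHG3 (5.84) and SNHG7 (2.02) in HEK293T, beside 39.5%. ZC3H11A was higher on SNHG6 in HEK293T (2.50, beside 0.56%). The SNHG7 call of SF3B4 rested on 1 library, as did that of ZC3H11A on SNHG6, at 42.8 RPM.

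RBFOX2, which recognises GCATG in the DNA spelling, had 2 intronic sites with GCATG near the peak centre in all 5 10plex libraries, shown here with GCATG in capitals (GRCh38).
SNHG15 intron 1, chr7:44986221-44986250, minus strand: cctcaccggaagGCATGgggtggcgtgtag
SNHG3 intron 1, chr1:28507201-28507230, plus strand: atagctgaatatGCATGttaccagtctaga
The SNHG15 peaks held 35.8 to 67.7 RPM in 5 libraries with the motif 1 to 25 nt from their centres, and the SNHG3 peaks 38.8 to 124 RPM in 5 libraries. A further GCATG site in SNHG3 intron 1 had peaks of 14.2 to 29.8 RPM in 4 libraries. GCATG lay within 50 nt of the centre, on the RNA strand, in 10 of 30 RBFOX2 peaks on host genes in K562 (33.3%) and 18 of 50 in HEK293T (36%). Over all RBFOX2 peaks it was 25.8% and 28.2%, and on the other strand 14.3% and 14.6% over all peaks and 13.3% and 14% on host genes.

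The singleplex RBFOX2 libraries reached all 10 host genes in replicate 2, against 7 in each HEK293T pool. SNHG3 held 216 and 251 RPM (175 and 107 in the HEK293T pools), SNHG15 171 and 158 RPM (85.0 and 77.6) and SNHG12 85.2 and 88.5 RPM (30.1 and 29.3). GAS5, which had no RBFOX2 peak in the pools, held 71.9 and 46.8 RPM, part of it in peaks that touch a snoRNA peak. The singleplex libraries are not from the same pools, and the difference was not tested. SLBP, the histone mRNA-binding protein, had 4 host peaks in replicate 1, on SNHG3, SNHG5 and SNHG12, of at most 6 reads, and none in replicate 2.

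Other host genes give the setting, as counts. Of 16 further noncoding snoRNA hosts 11 were tested, and 4 were higher and 0 lower for PRPF8 and SF3B4 in K562 (median 2.002), and 2 higher and 1 lower in HEK293T (median 0.79). Of 30 protein-coding hosts, mostly of ribosomal proteins, 9 were higher and 5 lower in K562 (median 1.47) and 7 higher and 3 lower in HEK293T (median -0.21). Of 9 tested noncoding RNAs that host no snoRNA, 0 were higher and 3 lower in K562 (median 0.61), and 0 higher and 1 lower in HEK293T (median -0.06). Genes whose exonic log2 values over the 50 10plex libraries were among the most like the mean of the 10 hosts were UBXN11 (Pearson r = 0.747, Spearman rho = 0.795), FANCA (r = 0.745, rho = 0.783), RPL21 (r = 0.741, rho = 0.565) and CHKB (r = 0.740, rho = 0.739). RPL21 is itself a snoRNA host, and all of these values share the depth of each library.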

How the data were processed

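Peaks came from 9 samples and 54 libraries. Per the labels and the submitters' processing notes, the authors trimmed reads with cutadapt 2.8 and mapped them to GRCh38 with STAR 2.7.6, and their methods set repeat reads aside, dropped PCR copies and ran CLIPper on each library alone, with no pooling of replicates. The deposited files give for each peak a CLIPper p-value, a joined name or a display score, and a −log10 P and a log2 fold over an external background. A fold over the CC was deposited for K562 pool 3 alone. For the other 10plex pools the files hold a chi-squared statistic against the CC and no fold. CC reads and folds there were solved from this statistic, the reads of the peak and estimated shares of the pool. The solved CC reads were whole numbers for 56.9% (RBFOX2, HEK293T pool 2) to 99.9% (PUM2, K562 pool 1) of peaks. Read numbers were taken from the deposited peak name, the fold with its P, or the CLIPper p-value, or, for 12 of the 723 host peaks, the least number the fold allows, and the recovery was checked. Peaks over a snoRNA or scaRNA gene of GENCODE release 44 or RefSeq were left out, touching peaks counted once, and peaks split into exonic (by centre) and within 100 nt of a splice site.

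log2(RPM + 1) was fitted with limma 3.58.1 (R 4.3.3) for genes with a value in at least 5 of the 50 10plex libraries, with 20 line-by-RBP means, the pool as block, 27 residual degrees of freedom and Benjamini-Hochberg adjustment over all genes. Libraries of a pool share a tube, from which the pairing comes: the median correlation of residuals within a pool was 0.03 to 0.05 for exonic and 0.00995 to 0.0264 for splice-site reads. The least ratio of chi-square to degrees of freedom between replicates was 4.10, so no library was taken as a copy of another. All 10 host genes are named, with the genes of most similar pattern by correlation, of which 1 is not reported here. The genes and lists were chosen with earlier results of these data known. Alternatives covered filters, floors, scalings, exon definitions, snoRNA peaks and left-out pools, and those on the share of the pool and on peaks that touch a snoRNA peak were chosen after seeing the data.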

Additional observations from a re-analysis of the deposited data

Results flagged for a closer look

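The class difference of GAS5 differed between the lines by -3.54 on the log2(RPM + 1) scale, with 5.05 in K562 and 8.59 in HEK293T. No p is given, since most libraries in the fit had no GAS5 peak and added no spread. SF3B4 had no GAS5 peak in the 3 K562 pools and 152 and 330 RPM in HEK293T, while PRPF8 had peaks in all 5 pools. Without peaks that touch a snoRNA peak the difference was -1.68 (limma, adjusted p = 0.307).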

How the results depend on the processing

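With snoRNA peaks kept, the exonic comparison turned round: 7 host genes were called in K562 and 1 in HEK293T, all lower for PRPF8 and SF3B4, and GAS5 (-0.65 and -0.19, K562 then HEK293T), SNHG1 (-0.65 and -0.25) and SNHG8 (-0.83 and -0.13) changed sign. Over all genes 620 of 13723 were lower in K562 and 858 in HEK293T. Genes seen in at least 15 libraries gave 2 and 1 exonic calls of 6 hosts tested and 1 and 1 splice-site calls of 1 tested. Of all genes 2993 and 1121 of 8954 were higher on exons, and 1217 and 1093 of 1298 at splice sites. At splice sites, peaks per 10000, the common floor and peaks over the external background gave 1 call in each line, the canonical transcript gave 8 and 7, and leaving out peaks on exons of another gene gave 1 in HEK293T. In the last of these settings SNHG3 could not be tested, and 5848 of 7220 genes were higher in HEK293T. Genes higher in K562 and HEK293T were 6381 and 4767 of 7856 by peaks per 10000. They were 62 and 125 of 225 above the floor and 4538 and 3841 of 5159 over the external background, with 1 host tested in each. The line-to-line exonic contrast had 2 calls above the common floor and 0 without peaks that touch a snoRNA peak. The comparison of each RBP with the other 9 named 1 host gene at splice sites above the common floor, beside 3. Against the external background, 15.8 host peaks a library passed for PRPF8 and SF3B4 in K562, and 4.33 and 1.75 for DDX3 and EIF3G in K562 and HEK293T. The causes were not tested, apart from the fewer genes that stricter settings left to test.

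Leaving out 1 pool at a time gave 4 to 6 exonic calls in K562 and 2 to 4 in HEK293T, 1 to 3 in the line-to-line contrast, and 7 to 10 host genes for each RBP against the others. At splice sites it gave 1 to 2 calls in K562, 0 to 2 in HEK293T, 0 to 1 between the lines and 1 to 2 for each RBP. Of 11744 to 13157 genes tested on exons, 2152 to 3130 were higher and 314 to 565 lower in K562. In HEK293T 1177 to 2109 were higher and 719 to 792 lower. Of 6291 to 7168 genes at splice sites, 5506 to 5948 were higher in K562 and 3891 to 6068 in HEK293T. HEK293T pool 1 gave the lowest HEK293T counts, 2 exonic (SNHG15 at 4.28, not called) and 0 at splice sites. Without that pool splice-site calls were 1 in K562 and 1 for each RBP. The line-to-line exonic contrast then had 3 calls, beside 822 higher and 753 lower of 12357 genes. That contrast had 2 calls without HEK293T pool 2 or K562 pool 3, and SNHG15 in HEK293T (5.03) was also not called without HEK293T pool 2, which gave the 1 splice-site call between the lines. Enriched host peaks a library ranged over 5.5 to 8.75 and 4 to 12.5 for PRPF8 and SF3B4, and 0 to 0.75 and 0.5 to 0.5 for DDX3 and EIF3G (K562, then HEK293T). The fit with no replicate block gave 4 and 4 exonic and 3 and 2 splice-site calls, so the pairing changed none of these 4 counts, while exonic host calls of each RBP against the others went from 63 to 55 and splice-site ones from 12 to 13. Over all alternatives, 121 values kept about their size, 17 fell short, 7 grew, 3 moved and 2 reversed. For calls, the number called was compared, and only settings with more lower than higher calls counted as reversed. The 121 thus include exonic settings of mixed direction in HEK293T. These are the common floor (3 higher, 3 lower) and exons of the canonical transcript (2 higher, 2 lower), beside 4 higher and 0 lower in the main fit. Depth limits the shallow libraries: a gene without a called peak in EIF3G or PUM2 may hold reads below their smallest peak.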
